A study of Mus musculus with 6 samples.

Results

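The transcriptomes of TRAMP-C2 cells exposed to oxaliplatin (Oxali) and to cisplatin (Cispl) were compared at the same dose, 2 µM, and the same time, 24 h, to ask in which genes and gene classes these platinum drugs part. The comparison used 4 of the 6 libraries of the series, 2 per drug, and the 2 control libraries were set beside them. It covered the 14956 genes, of 54446 listed, that had at least 10 counts in at least 2 of the 6 libraries. TRAMP-C2 is a prostate cancer line of male C57BL/6 mice, established from the TRAMP model in which a prostate-directed promoter drives the SV40 early region. Control cells received no agent, and all 3 groups shared the line, the medium, which held serum, insulin and dehydroisoantrosterone, and the time in culture. A line is 1 cell population, and the labels do not say whether the libraries of a group came from separate cultures, so the spread between them may be technical. Poly(A) RNA was sequenced, and fewer cells of a kind and less RNA per cell cannot be told apart in such bulk samples. The drugs formed 1 pair of compounds, so no adjustment over pairs was needed, and p-values were adjusted over genes.

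Both drugs are platinum complexes that bind to the purine bases of DNA and join neighbouring bases or strands. Cispl carries ammine and chloride ligands, whereas Oxali carries a bulky diaminocyclohexane ligand that stays on the metal and an oxalate that leaves it. Damaged or stressed cells are known to use several transcription programs. p53 drives genes of cell cycle arrest and apoptosis, NF-κB and interferon-regulated factors drive chemokines and antiviral genes, and AP-1 drives immediate-early genes. ATF4, the effector of the integrated stress response, drives amino acid synthesis, amino acid transport and tRNA charging, and NRF2 drives genes of glutathione and thioredoxin metabolism. SREBP factors drive sterol synthesis, and E2F factors drive DNA replication genes.

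Library totals lay between 21345312 and 24041767 estimated counts, and a count of 3 corresponded to 0.125 to 0.141 CPM, the count after scaling to the total of its library. Of the fibroblast markers, Col1a1 (type I collagen) held 95929 to 129470.0 normalised counts, whereas Lum (lumican) held 19.4 to 57.1. Of the epithelial and prostate markers, Krt5 and Pbsn were at 0 in all 6 libraries and Epcam reached at most 1.97, whereas Krt8 held 95.1 to 135 and Cdh1 369 to 573. The macrophage marker Adgre1 was at 0 and the leukocyte marker Ptprc reached at most 1.02. Mitochondrially encoded genes took 1.87% to 2.11% of counts. The rRNA repeat loci took up to 0.166% of counts, highest in the Cispl libraries, and the part of this in other differences was not tested.

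Direct comparison of the drugs called 2977 genes at a DESeq2 adjusted p below 0.05, which is 19.9% of the genes tested. After Oxali, 1289 genes (8.62%) were higher and 1688 (11.3%) were lower than after Cispl. With total counts in place of size factors the split was 1619 higher and 1362 lower, although that scaling moved the median difference of all genes by only 0.034 on the log2 scale. The differences were mostly small: the called genes had a median absolute log2 difference of 0.325, and 2365 of them (79.4%) differed by less than 0.5. A difference of at least 1 was found for 31 higher and 35 lower genes. Well-measured genes were called more often: of the 4960 genes whose mean reached 1000 normalised counts, 14.6% were higher and 24.3% were lower after Oxali. The 2 libraries of each drug did not overlap for 10164 genes (68.0%). With any 1 of the 4 drug libraries left out, 1160 (without Oxali replicate 1) to 1308 (without Cispl replicate 2) genes were called. In total, 937 genes, 335 higher and 602 lower, were called whichever of the 6 libraries was left out.

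**Figure D1:**
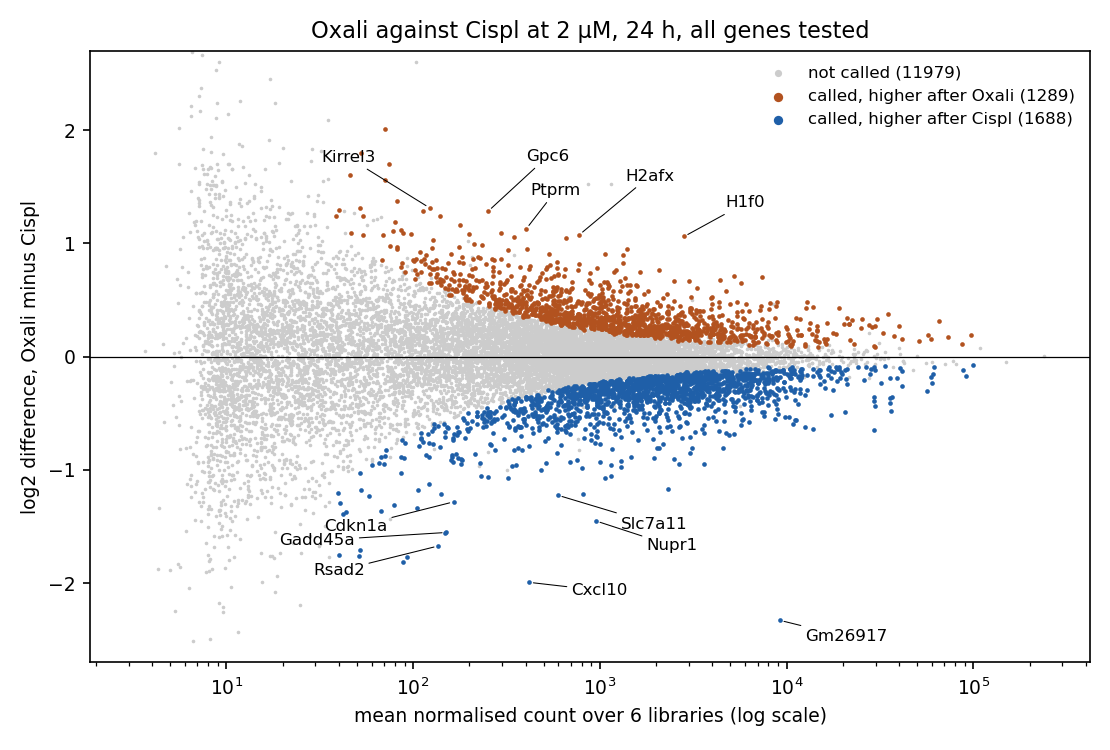
Log2 difference between Oxali and Cispl (positive values higher after Oxali) for each gene tested, against its mean normalised count over the 6 libraries on a log axis; 48 genes lie beyond the axis. Called genes are coloured by direction, and the named genes are among those with the largest called differences, from -2.33 for Gm26917 to 1.31 for Kirrel3.

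For comparison with untreated cells, 10.7% of the genes were higher and 9.50% lower after Oxali than in control, and 15.7% were higher and 12.4% lower after Cispl. Both of these comparisons use the same 2 control libraries, so their values are given side by side and not correlated.

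The 10 most negative differences, taken over called genes whose mean reached 100 normalised counts and whose drug libraries did not overlap, included immune, stress and cell cycle arrest genes. A normalised count is the estimated count divided by the size factor of its library. Cxcl10, a chemokine that attracts T cells (chr5:92346638-92348889, GRCm38.p6), gave 101 and 79.8 in control, 244 and 224 after Oxali, and 958 and 908 after Cispl normalised counts, and Rsad2, the antiviral protein viperin (chr12:26442746-26456452), gave 49.8 and 64.04 in control, 79.8 and 88.01 after Oxali, and 298 and 236 after Cispl. Both genes were highest in the 2 Cispl libraries, the Oxali libraries lay between those and control, and no groups overlapped. Their log2 differences between the drugs were -1.99 ± 0.15 and -1.67 ± 0.26 (SE; DESeq2 adjusted p = 2.34e-39 and 3.11e-09). Gadd45a, which slows the cell cycle after DNA damage (chr6:67035096-67037457), gave 109 and 99.5 in control, 97.5 and 78.8 after Oxali, and 246 and 272 after Cispl. Cdkn1a, the cyclin-dependent kinase inhibitor p21 (chr17:29090976-29100727), gave 120.4 and 139.9 in control, 102 and 111 after Oxali, and 254 and 263 after Cispl. For both genes the Cispl libraries stood above all other libraries while the Oxali libraries lay at or below control. Gadd45a differed by -1.55 ± 0.23 and Cdkn1a by -1.28 ± 0.22 (adjusted p = 1.32e-09 and 8.63e-08), and against control neither was called after Oxali (-0.24 and -0.29) whereas both rose after Cispl (1.31 and 0.99).

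Nupr1, a small stress-induced chromatin protein (chr7:126623249-126630861), gave 836 and 842 in control, 525 and 561 after Oxali, and 1527 and 1439 after Cispl. It fell by 0.63 with Oxali and rose by 0.82 with Cispl, and the difference between the drugs was -1.45 ± 0.096 (adjusted p = 7.46e-49). Slc7a11, the cystine transporter that feeds glutathione synthesis (chr3:49892526-50443614), gave 612 and 698 in control, 353 and 328 after Oxali, and 834 and 758 after Cispl. Its Oxali libraries were the lowest, and it differed by -1.22 ± 0.13 (adjusted p = 3.50e-19). Fetub, which encodes the secreted protease inhibitor fetuin-B, gave 99.6 and 94.6 in control, 59.4 and 63.4 after Oxali, and 161 and 148 after Cispl, a difference of -1.33 ± 0.27. Gm10705, annotated as a processed pseudogene, and Gm6169, a predicted gene that overlaps another annotation, differed by -1.56 ± 0.32 and -1.22 ± 0.26, and their counts are uncertain. Gm26917, an annotated RNA gene at a locus of rRNA repeat sequence, had the largest difference of these 10 and is described with the rRNA loci. Several of these 10 calls could not be repeated with fewer libraries, because DESeq2 set genes of their mean count aside there and gave no adjusted p. This was so for Gadd45a, Cdkn1a and Gm10705 without either Cispl library, for Rsad2 and Gm6169 without either Cispl library or Oxali replicate 1, and for Fetub whichever of the 4 drug libraries was left out. Their differences kept their sign in these fits, from -1.49 (without Cispl replicate 1) to -1.83 (without Cispl replicate 2) for Rsad2.

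The 10 genes with the largest positive differences by the same rule were of a different kind. 8 of the 10 have bodies of more than 300 kb: the cell adhesion molecule Kirrel3, the synaptic scaffold Shank2, the glypican Gpc6, the sorting receptor Sorcs2, the methionine sulfoxide reductase Msra, the receptor phosphatase Ptprm, the vesicle trafficking protein Lrba and the ciliary protein Bbs9. All 8 overlap other annotated genes. Gpc6 (1051 kb) gave 356 and 371 in control, 314 and 246 after Oxali, and 129 and 100.3 after Cispl. Ptprm (688 kb) gave 423 and 489.7 in control, 522 and 516 after Oxali, and 240.2 and 234 after Cispl. Lrba (558 kb) gave 390.2 and 372 in control, 331 and 351 after Oxali, and 168 and 152 after Cispl. In these 3 genes the Cispl libraries stood below all others and Oxali was not called against control, and the drugs differed by 1.28 ± 0.21, 1.13 ± 0.15 and 1.09 ± 0.17 (DESeq2 adjusted p = 4.17e-08, 1.09e-12 and 2.70e-09). Kirrel3, Sorcs2, Msra and Bbs9 also had their lowest values in the Cispl libraries, with differences of 1.31, 1.24, 1.16 and 1.08, and all 4 fell after Cispl against control (-1.22, -1.16, -1.26 and -1.23) but were not called after Oxali. Shank2 was the exception. It gave 83.02 and 93.6 in control, 191 and 165 after Oxali, and 73.5 and 72.7 after Cispl, so that its Oxali libraries were the highest, and it rose against control after Oxali (1.01 ± 0.26, adjusted p = 7.37e-04) and was not called after Cispl (-0.27 ± 0.27). Kirrel3 and Shank2 received no adjusted p whichever of the 4 drug libraries was left out, and Sorcs2 none without either Cispl library or Oxali replicate 1; their differences kept their sign in these fits.

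The remaining 2 of these 10 genes encode histones. H2afx encodes the histone variant that is phosphorylated at DNA breaks (chr9:44334694-44336077), and it gave 989 and 769 in control, 956 and 1014 after Oxali, and 486 and 448 after Cispl. H1f0 encodes a linker histone of slowly dividing cells (chr15:79028450-79030504), and it gave 4195 and 3931 in control, 2959.7 and 3017 after Oxali, and 1499 and 1366 after Cispl. The 2 Cispl libraries held the lowest values of both genes. H2afx differed by 1.08 ± 0.14 (adjusted p = 1.87e-13) and H1f0 by 1.06 ± 0.069 (adjusted p = 5.63e-50). H1f0 fell with both drugs, with log2 changes of -0.44 after Oxali and -1.504 after Cispl.

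A total of 147 genes (0.983% of those tested) moved in opposite directions from control, that is, they passed the threshold in all 3 comparisons and rose with either drug while they fell with the other. Oxali lowered and Cispl raised 104 of them, with a median difference of -0.50 between the drugs. Oxali raised and Cispl lowered the other 43, with a median of 0.46. These moves were sensitive to the number of libraries: 39 to 57 of the 147 remained opposite when 1 library was left out, the fewest without Oxali replicate 1. In every one of these 6 fits, 26 genes remained, 23 that Oxali lowered and 3 that it raised.

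The groups differed in make-up. Of the 104 genes that Oxali lowered and Cispl raised, 38 (36.5%) stood on 6 lists, those of the ATF4 response (11 genes), aminoacyl-tRNA synthetases (6), antioxidant defence (8), cholesterol and fatty acid synthesis (5), the proteasome (5) and ER folding (3), compared with 1.38% of all genes tested. None of the 43 genes that Oxali raised and Cispl lowered was on these lists. The 6 lists all stood lower after Oxali and were picked with results of these data known, so these shares are descriptive. Other lists held some of the 43, among them glycolysis and hypoxia (4 genes) and YAP and TAZ targets (2). The gene bodies of the 43 were long, with a median of 61.7 kb compared with 19.2 kb over all genes tested and 13.5 kb among the 104. Bodies of protein-coding genes of at least 100 kb made up 37.2% of the 43, 1.92% of the 104 and 11.4% of all genes tested.

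Among the genes that Oxali lowered and Cispl raised, Nupr1 ranked at the top by the smaller of its changes against control. Psph, the last enzyme of serine synthesis, gave 1105 and 1176 in control, 788 and 788 after Oxali, and 1545 and 1510.3 after Cispl. Tuba4a, an alpha-tubulin, gave 1247 and 1171 in control, 941 and 862 after Oxali, and 1776 and 1771 after Cispl. Fubp1, a DNA-binding regulator of Myc, gave 3172 and 3385 in control, 2572 and 2588 after Oxali, and 4956 and 5005 after Cispl. In each of these genes control lay between the drugs, which the choice of opposite moves requires of the group means, and no groups overlapped. Nupr1, Psph, Tuba4a and Fubp1 stayed opposite in all 6 fits that left out a library. Psph changed by -0.53 ± 0.087 after Oxali and by 0.42 ± 0.083 after Cispl (adjusted p = 1.93e-08 and 4.89e-06). Tuba4a changed by -0.42 ± 0.087 and 0.55 ± 0.084 (adjusted p = 1.64e-05 and 9.92e-10), and Fubp1 by -0.35 ± 0.056 and 0.60 ± 0.054 (adjusted p = 1.74e-08 and 2.10e-26). The other members with the largest moves were Krt13, Dnajb9, Chac1, Lgals3bp, Jdp2 and Pdrg1, of which Jdp2 and Pdrg1 stayed opposite in 3 of the 6 fits, Lgals3bp in 1, and Krt13, Dnajb9 and Chac1 in 0. Chac1, a glutathione-degrading enzyme, gave 420.3 and 450.2 in control, 358 and 317 after Oxali, and 709.8 and 647 after Cispl, and it changed by -0.36 ± 0.14 after Oxali (adjusted p = 0.0363) and by 0.64 ± 0.13 after Cispl (adjusted p = 1.65e-05).

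Among the genes that Oxali raised and Cispl lowered, Pcdh17, a protocadherin of cell contacts, gave 1633 and 1723 in control, 2094 and 1971 after Oxali, and 1204 and 1217 after Cispl. It changed by 0.28 ± 0.074 after Oxali and by -0.47 ± 0.076 after Cispl (adjusted p = 0.00153 and 1.35e-08) and stayed opposite in 4 of the 6 fits. Bnip3, a mitophagy receptor induced by low oxygen, gave 1077 and 1139 in control, 1336 and 1336 after Oxali, and 893 and 800.2 after Cispl. Nrf1, a transcription factor of mitochondrial genes, gave 890.4 and 836 in control, 1045 and 1141 after Oxali, and 645 and 723 after Cispl, and Thada, a gene linked to thyroid adenoma, gave 875 and 898 in control, 1119.6 and 1081 after Oxali, and 680.3 and 720.4 after Cispl. In all 4 of these genes control lay between the drugs, as their choice requires of the group means. Bnip3, Nrf1 and Thada stayed opposite in only 1 of the 6 fits. Nrg1, the ErbB receptor ligand neuregulin 1 (1069.5 kb), changed by 0.29 ± 0.11 and -0.29 ± 0.12 (adjusted p = 0.0486 and 0.0446) and in 0 of the 6. Pknox2, Cacna1c, Dubr, Mrgprf and Ptprb were likewise opposite in 0 of the 6. The 3 genes of this direction that remained in all 6 were Actg1 (cytoplasmic gamma-actin), Top2a (topoisomerase II alpha) and Amotl2 (a partner of YAP), which were chosen by that count after their values were seen. Amotl2 gave 4925 and 4834 in control, 6841 and 6490.2 after Oxali, and 4010.5 and 4139 after Cispl, changes of 0.45 ± 0.049 and -0.26 ± 0.050.

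**Figure D2:**
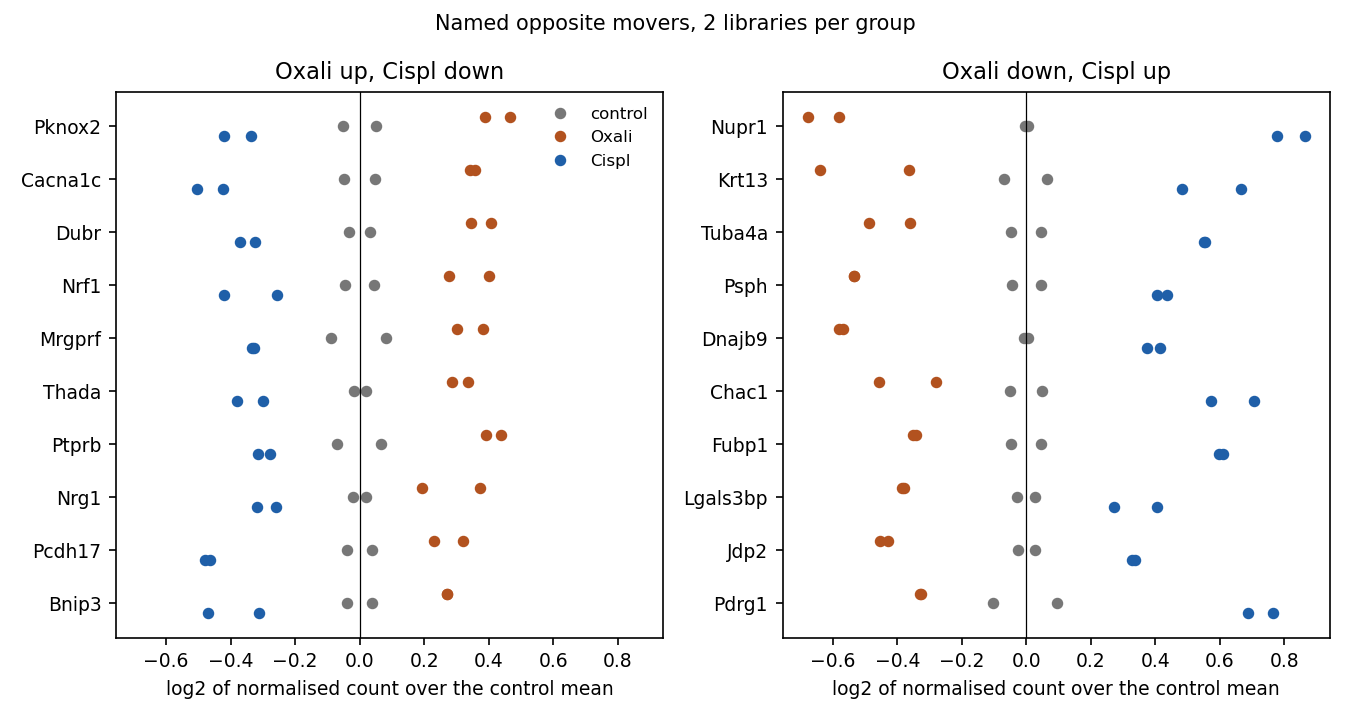
Log2 of the normalised count over the control mean in each of the 6 libraries, for the 10 genes per direction with the largest opposite moves; each point is a library, coloured by group. In all 20 genes the control libraries lie between those of the drugs, which the choice of opposite moves requires of the group means. Nupr1 changed by -0.63 after Oxali and by 0.82 after Cispl.

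Most genes on the list of the ATF4 and amino acid response were lower after Oxali. Of 30 members tested, 25 were lower and 1 was higher after Oxali, and the median difference was -0.63, compared with -0.003 over all genes tested. Against control, Oxali lowered 20 members and raised 3, whereas Cispl raised 17 and lowered 3, with medians of -0.36 and 0.28. Of the 25 lower members, 23 were lower whichever library was left out. The member that was higher after Oxali was Slc38a2, an amino acid transporter (0.22 ± 0.041). Fgf21, Ddit3, Cebpg and Cebpb did not pass between the drugs. Ddit3, which encodes the stress factor CHOP, rose with both drugs (0.62 and 0.79), and its difference was -0.18 (95% interval -0.34 to -0.015).

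The members of this list cover several roles. Asns, which makes asparagine, gave 4943 and 4866 in control, 3130.5 and 3204 after Oxali, and 5628 and 5482 after Cispl, and Psat1, an enzyme of serine synthesis, gave 11818 and 11950.0 in control, 10090.0 and 10196 after Oxali, and 15588 and 15693 after Cispl. Control lay between the drugs in both genes and no groups overlapped. Their differences were -0.81 ± 0.048 and -0.62 ± 0.033 (adjusted p = 7.70e-61 and 2.85e-75). Further members were chosen after their values were seen. Atf4 itself rose after Cispl (0.35 ± 0.042) and was not called after Oxali (-0.040 ± 0.043), a difference of -0.39 ± 0.042 between the drugs (adjusted p = 2.67e-18). Trib3, a pseudokinase that feeds back on ATF4, fell after Oxali (-0.71) and rose after Cispl (0.27). Ddit4, an inhibitor of mTOR, likewise fell by 0.32 and rose by 0.63. Cth, which makes cysteine, fell after Oxali (-1.21) and was not called after Cispl (-0.25). Ppp1r15a, a phosphatase subunit that ends the stress response, rose with both drugs, by 0.44 after Oxali and by 0.96 after Cispl.

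For each motif here and below, the 250 bases before the annotated start were searched on both strands (RefSeq promoter windows, GRCm38.p6). Here the motif was the C/EBP-ATF response element, TGATGNAA, which was added after the expression values were seen. It was present in 8 of the 26 list genes with a window (30.8%), in 11 of 80 genes that Oxali lowered and Cispl raised (13.8%), and in 3.91% of all 27025 genes with a window. Among all genes called lower after Oxali it was present in 46 of 1314 (3.5%), and among genes tested in 2.4%. Psph, Trib3, Ddit3 and Psat1 were also searched and gave no match. The following stretches from the list and from the synthetases are shown because they carry the motif in genes lower after Oxali. They read 5′ to 3′ on the strand of the gene, with the motif or its reverse complement in capitals.
Nupr1, chr7:126625562-126625591, minus strand, overlapping an annotated exon: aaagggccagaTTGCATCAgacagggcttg
Chac1, chr2:119351035-119351070, plus strand: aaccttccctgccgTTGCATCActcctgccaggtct
Asns, chr6:7693214-7693243, minus strand, overlapping an annotated exon: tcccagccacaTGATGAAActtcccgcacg
Slc7a11, chr3:50443658-50443693, minus strand: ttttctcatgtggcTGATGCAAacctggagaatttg
Gars, chr6:55037957-55037992, plus strand: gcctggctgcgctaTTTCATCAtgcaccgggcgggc
A match describes these letters only, and no binding was measured in these samples.

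Aminoacyl-tRNA synthetases, which charge tRNAs with amino acids, moved in the same direction. Of 20 cytosolic members, 14 were lower after Oxali and 1, Farsa, was higher (not called with any 1 drug library left out), with a median difference of -0.28. Against control, 9 fell and 4 rose after Oxali, while 13 rose and 0 fell after Cispl. Aars gave 13728 and 13478 in control, 10829 and 10913 after Oxali, and 16916 and 16967 after Cispl, Nars gave 10788 and 10915 in control, 8925 and 9161 after Oxali, and 13239 and 13478 after Cispl and Gars gave 8727 and 8718 in control, 7057 and 7072 after Oxali, and 10298 and 10432 after Cispl normalised counts. In all 3 genes control lay between the drugs, and the differences were -0.64 ± 0.033, -0.56 ± 0.036 and -0.55 ± 0.037 (DESeq2 adjusted p = 1.04e-80, 2.02e-51 and 9.13e-49). The element shown above was present in 3 of the 12 synthetase genes with a window.

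The antioxidant, glutathione and metallothionein list was lower after Oxali in 26 of 39 members and higher in 1, the extracellular superoxide dismutase gene Sod3 (0.28 ± 0.094, not called with any 1 drug library left out), with a median difference of -0.30. Oxali lowered 23 members against control and raised 2, and Cispl raised 19 and lowered 2. Ftl1, the ferritin light chain that stores iron, gave 35832 and 34278 in control, 30884 and 30700.0 after Oxali, and 43831 and 42223 after Cispl. Prdx1, a peroxiredoxin that removes hydrogen peroxide, gave 17130.0 and 16901 in control, 14035 and 14557 after Oxali, and 20558 and 20364 after Cispl, and Pgd, an NADPH-producing enzyme, gave 7910.4 and 7528 in control, 6067 and 5991 after Oxali, and 8523 and 8378 after Cispl. The Oxali libraries held the lowest and the Cispl libraries the highest values of each, and the differences were -0.48 ± 0.035, -0.52 ± 0.034 and -0.49 ± 0.043 (adjusted p = 9.63e-40, 5.46e-49 and 6.63e-27). Further members, chosen after their values were seen, were Hmox1, heme oxygenase 1 (-0.18 after Oxali and 0.43 after Cispl), and Nfe2l2, which encodes NRF2 (-0.12, not called, and 0.38). The metallothioneins, which bind metals, did not pass between the drugs. Mt1 and Mt2 differed by -0.17 (95% interval -0.33 to -0.017) and -0.19 (-0.34 to -0.038), and both fell after Oxali and were not called after Cispl.

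Cholesterol and fatty acid synthesis genes were lower after Oxali in 29 of 37 members and higher in 0, with a median difference of -0.35. Most of this lay in a fall with Oxali: 32 members fell and 0 rose after Oxali (median -0.40), whereas 13 fell and 7 rose after Cispl (median -0.054). Idi1, an isomerase of the isoprenoid pathway, gave 3255 and 3376 in control, 1987 and 2111 after Oxali, and 3705 and 3697 after Cispl. Hmgcs1, which makes the precursor of mevalonate, gave 5505 and 5736 in control, 3193 and 3401 after Oxali, and 5391 and 5120.3 after Cispl, and Fads2, a fatty acid desaturase, gave 3545 and 3566 in control, 2144 and 2039.6 after Oxali, and 3408 and 3431 after Cispl. The Oxali libraries were the lowest in all 3 genes, and the differences were -0.85 ± 0.059, -0.67 ± 0.056 and -0.71 ± 0.057 (adjusted p = 2.37e-44, 5.70e-31 and 2.41e-33). Srebf2, the sterol-sensing transcription factor, was chosen after its values were seen. It fell with both drugs and did not pass between them, with a difference of -0.085 (-0.17 to -0.00043).

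Proteasome subunit genes were lower after Oxali in 29 of 37 members and higher in 1, the assembly factor gene Psmg1 (not called without Oxali replicate 2 or Cispl replicate 2), with a median difference of -0.24. Against control, 13 fell and 2 rose after Oxali, and 19 rose and 0 fell after Cispl. Psmd1 gave 6892 and 6817 in control, 5206 and 5170.1 after Oxali, and 6587 and 6562 after Cispl, Psmd3 gave 6817 and 6159.7 in control, 5458 and 5349 after Oxali, and 7439 and 7586 after Cispl and Psmb3 gave 4311 and 4092 in control, 4115 and 4117 after Oxali, and 5556 and 5436 after Cispl. The drug libraries did not overlap in these 3 genes, which differed by -0.34 ± 0.041, -0.48 ± 0.055 and -0.42 ± 0.049 (adjusted p = 5.17e-15, 5.45e-16 and 1.99e-15). With 1 drug library left out, 18 to 21 members were called lower.

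ER folding and unfolded protein response genes were lower after Oxali in 23 of 45 members and higher in 0, with a median difference of -0.19, and 15 to 18 were called lower when any 1 drug library was left out. Oxali lowered 34 members against control, and Cispl lowered 13 and raised 3. Herpud1, which helps to degrade misfolded proteins, gave 2156 and 2261 in control, 1595 and 1569 after Oxali, and 2727 and 2689 after Cispl, with control between the drugs. Hspa5, the ER chaperone BiP, gave 34507 and 34606 in control, 22683 and 23888 after Oxali, and 29883 and 29927 after Cispl, and Calr, the ER chaperone calreticulin, gave 40611 and 39990.0 in control, 30479 and 31144 after Oxali, and 39401 and 39372 after Cispl. Hspa5 fell with both drugs but further with Oxali, and Calr fell with Oxali and was not called after Cispl. The differences were -0.78 ± 0.064, -0.36 ± 0.034 and -0.35 ± 0.029 (adjusted p = 5.74e-31, 1.31e-23 and 9.84e-33). Xbp1, chosen after its values were seen, fell with both drugs (-0.87 and -0.87), and the 95% interval of its difference was -0.17 to 0.18. The ER stress element, CCAAT, 9 bases of any kind and then CCACG, was present in 8 of 35 promoter windows of this list (22.9%) and in 0.13% of all. Among all genes called lower after Oxali it was present in 0.457%, and among genes tested in 0.144%. It was present in 0 of 80 genes that Oxali lowered and Cispl raised. The Hspa5 window holds it on the strand of the gene, and its stretch is shown because Hspa5 is the defining target of that element; it overlaps an annotated exon.
Hspa5, chr2:34772020-34772048, plus strand, element in capitals: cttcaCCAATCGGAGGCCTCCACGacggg
Cytosolic heat shock chaperones were lower after Oxali in 13 of 35 members (6 to 8 with any 1 drug library left out) and higher in 3, Hsf1, Chordc1 and Hspa4l. Bag3, a co-chaperone, gave 1081 and 1089.9 after Oxali and 1653 and 1676 after Cispl and differed by -0.62 ± 0.079, Hspa4 gave 9542 and 9786 after Oxali and 11566 and 11650.0 after Cispl and differed by -0.26 ± 0.036, and Hspa4l gave 3837 and 3893 after Oxali and 2795 and 2949 after Cispl and differed by 0.43 ± 0.065 in the other direction (adjusted p = 2.78e-13, 1.15e-11 and 1.23e-09).

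**Figure D3:**
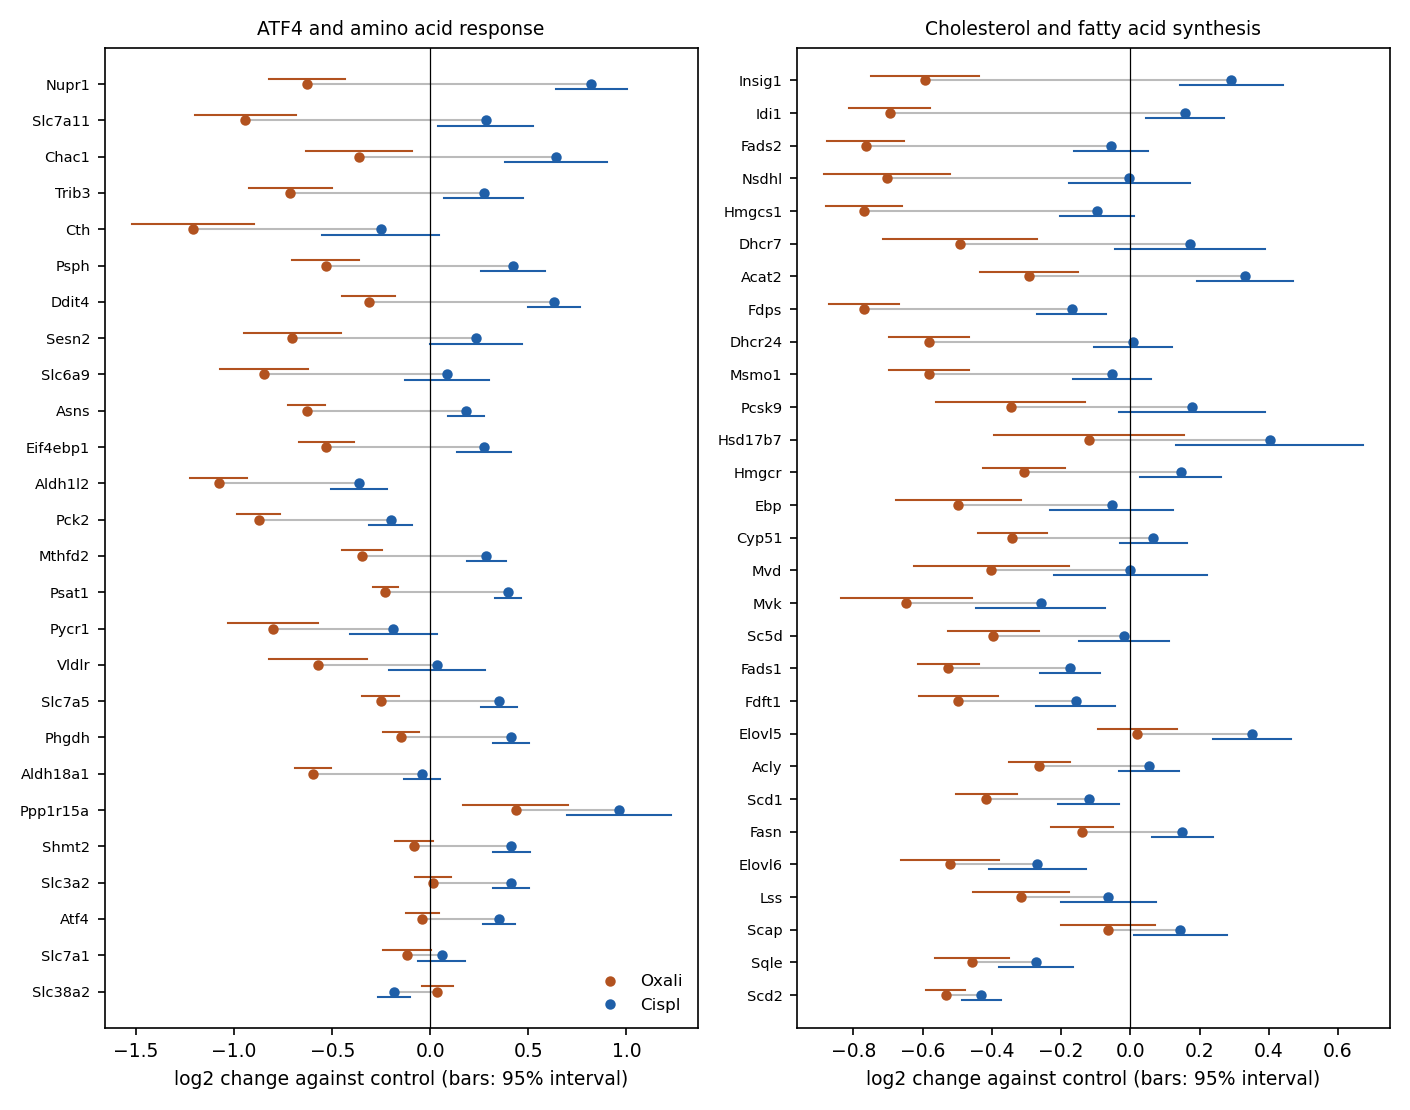
Log2 change against control after Oxali and after Cispl, with 95% intervals, for the members called between the drugs, 26 of 30 on the ATF4 list and 29 of 37 on the cholesterol and fatty acid list; both changes use the same 2 control libraries. Over all members tested, the ATF4 list has medians of -0.36 after Oxali and 0.28 after Cispl, and the cholesterol list has medians of -0.40 and -0.05.

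Interferon-stimulated genes stood lower after Oxali by point estimate more often than they passed. Of 49 members, 15 were lower and 1, Ifitm3, was higher, and the median difference was -0.36. Against control, 23 members rose and 0 fell after Cispl (median 0.48), and 4 rose and 3 fell after Oxali (median 0.19). The calls leaned on all 4 drug libraries: with any 1 of them left out, 1 to 3 members were called lower and 1 to 5 of the 15 received no adjusted p. edgeR called 25 lower. Ifitm3, a membrane protein that blocks virus entry, gave 2863 and 3080.4 after Oxali and 2451 and 2384 after Cispl, a difference of 0.30 ± 0.063 (adjusted p = 2.85e-05), and it was not called without Oxali replicate 2 (0.24). Isg15 and Ifit1, antiviral effectors chosen after their values were seen, gave 155 and 177 in control, 240.4 and 212 after Oxali, and 457 and 322 after Cispl and 284 and 301 in control, 545 and 519.9 after Oxali, and 713 and 655 after Cispl. Both rose after Cispl, and Ifit1 also after Oxali, and the drugs differed by -0.78 ± 0.21 and -0.36 ± 0.12 (adjusted p = 0.00186 and 0.018).

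The interferon response core, GAAA, 2 bases of any kind and then GAAA, was present in 14 of 36 promoter windows of this list (38.9%) and in 3.46% of all windows. Among all genes called lower after Oxali it was present in 3.81%, and among genes tested in 3.13%. It was present in 0 of 80 genes that Oxali lowered and Cispl raised. The stretches of the genes with the largest differences are shown, on the strand of the gene and with the core or its reverse complement in capitals.
Cxcl10, chr5:92349079-92349116, minus strand: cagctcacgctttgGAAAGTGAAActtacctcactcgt
Rsad2, chr12:26456549-26456586, minus strand: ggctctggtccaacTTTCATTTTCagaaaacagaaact

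MHC class I antigen presentation genes were lower after Oxali in 8 of 18 members and higher in 0 (median -0.22), with 5 or 6 called when any 1 drug library was left out. H2-D1, a classical class I heavy chain, gave 749 and 742 in control, 744 and 786 after Oxali, and 1195 and 1115 after Cispl. It rose after Cispl (0.63 ± 0.097) and was not called after Oxali (0.036 ± 0.099), and the drugs differed by -0.60 ± 0.096 (adjusted p = 1.72e-08). H2-K1 and B2m, the other classical heavy chain and the light chain, were chosen after their values were seen and differed by -0.62 ± 0.17 and -0.29 ± 0.046. Class I genes are near-identical to each other, so the estimated counts of H2-D1 and H2-K1 may share reads. Calr and Pdia3, 2 of the 8, are ER chaperones with general roles. Pdia3 gave 18225 and 18950.0 after Oxali and 22360.0 and 21465 after Cispl and fell after Oxali.

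NF-κB targets and chemokines were lower after Oxali in 10 of 30 members and higher in 4, Cxcl5, Nfkb1, Bcl2l1 and Csf1 (median -0.24), and with any 1 drug library left out 5 to 7 were called lower and 1 to 3 higher. Both drugs raised members of this list, Oxali 13 and Cispl 17. Ptgs2, the inducible prostaglandin synthase COX-2, gave 1100.0 and 1250.3 in control, 2214 and 2177 after Oxali, and 3788 and 4432 after Cispl. Vcam1, an adhesion molecule for leukocytes, gave 4593 and 4775 in control, 4897 and 5017 after Oxali, and 6420.1 and 6628 after Cispl, and Csf1, the macrophage growth factor, gave 7653 and 8007 in control, 10917 and 10573 after Oxali, and 7698 and 8059 after Cispl. Ptgs2 rose with both drugs and further with Cispl, Vcam1 rose with Cispl alone by the threshold, and Csf1 rose with Oxali alone by the threshold. The differences between the drugs were -0.90 ± 0.089, -0.40 ± 0.047 and 0.45 ± 0.045 (adjusted p = 3.36e-22, 2.49e-15 and 2.49e-21). The kappaB consensus was present in 12 of 22 promoter windows of the list (54.5%) and in 4.46% of all. Among all genes called lower after Oxali it was present in 6.01%, and among genes tested in 5.32%. It was present in 7 of 80 genes that Oxali lowered and Cispl raised (8.75%).

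AP-1 and immediate-early genes were lower after Oxali in 10 of 27 members and higher in 3, Fosl2, Ccn1 and Klf2 (median -0.25), and with any 1 drug library left out 6 or 7 were called lower and 1 or 2 higher. Each drug raised 18 members and lowered 1 against control. Ier3, an early gene of cell survival, gave 569 and 594 in control, 869 and 828 after Oxali, and 1738 and 1828 after Cispl, Junb gave 801 and 676 in control, 1093 and 1110.4 after Oxali, and 1737 and 1792 after Cispl and Klf4 gave 769 and 743 in control, 1062 and 1164 after Oxali, and 1689 and 1676 after Cispl. The control libraries were lowest and the Cispl libraries highest in all 3 genes, with Oxali between them. The differences were -1.07 ± 0.088, -0.68 ± 0.095 and -0.60 ± 0.086 (adjusted p = 1.42e-31, 4.16e-11 and 1.26e-10). Klf2, a Krüppel-like factor, went the other way: it rose after Oxali (0.68 ± 0.25) and was not called after Cispl (-0.18 ± 0.26).

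Of 19 MAPK feedback genes, 4 were lower after Oxali, Dusp4, Dusp8, Phlda1 and Dusp1 (21.1%, compared with 11.3% of all genes tested). Dusp16 was the 1 higher (5.26%, compared with 8.62%). With any 1 drug library left out, 2 were called lower and 0 higher. The phosphatase genes Dusp4 and Dusp1 differed by -0.78 ± 0.13 and -0.35 ± 0.12 and Phlda1 by -0.57 ± 0.10 (adjusted p = 2.03e-08, 0.0159 and 9.08e-07), and Dusp1 was not called when any 1 drug library was left out. Of 10 genes of EGF receptors and ligands, Egfr (0.32 ± 0.054) and Nrg1 (0.58 ± 0.12) were higher and Btc (-0.49 ± 0.17) was lower after Oxali. These were 20.0% and 10.0% of the list, compared with 8.62% and 11.3% of all genes tested. Btc, the ligand betacellulin, gave 223 and 232 after Oxali and 330.4 and 310.0 after Cispl and was not called when any 1 of the 6 libraries was left out.

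The p53 target list was lower after Oxali in 10 of 35 members and higher in 0 (median -0.19). This count rested on all drug libraries, since 1 to 4 members were called lower with any 1 of them left out, and up to 3 of the 10 then received no adjusted p. Sesn2, which restrains mTOR and is also an ATF4 target, gave 549 and 554 in control, 350.0 and 326 after Oxali, and 666 and 630.3 after Cispl, and Trp53inp1, a p53-induced pro-apoptotic protein, gave 185 and 193 in control, 124 and 124 after Oxali, and 240.2 and 227 after Cispl. Both fell after Oxali, neither was called after Cispl, and they differed by -0.94 ± 0.12 and -0.91 ± 0.20 (adjusted p = 3.09e-12 and 7.55e-05). Trp53 and Mdm2, the p53 gene and its ubiquitin ligase, were chosen after their values were seen and differed by -0.23 ± 0.090 and -0.24 ± 0.082 (adjusted p = 0.0476 and 0.0195). Among the 4 genes with Gadd45 names, Gadd45a was the only one called, and it received no adjusted p without either Cispl library, while Gadd45g gave 0.11 (-0.13 to 0.34) and Gadd45gip1, which encodes a binding partner, gave 0.16 (-0.046 to 0.36).

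Of 15 BCL2-family genes, 3 pro-apoptotic members were lower after Oxali, Bbc3 (-0.69 ± 0.25), Bcl2l11 (-0.44 ± 0.11) and Bak1 (-0.25 ± 0.061), and the anti-apoptotic Bcl2l1 was higher (0.28 ± 0.088). These were 20.0% and 6.67% of the list, compared with 11.3% and 8.62% of all genes tested. These calls were not stable. Bcl2l1 was not called when any 1 drug library was left out, Bak1 was not called without Oxali replicate 1 (-0.26), Oxali replicate 2 (-0.24) or Cispl replicate 1 (-0.23), and Bcl2l11 not without Oxali replicate 1 (-0.39) or Cispl replicate 1 (-0.40).

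Repair of crosslinks, excision repair and recombination showed no common direction: 7 of 65 members (10.8%) were higher and 7 (10.8%) lower after Oxali. The shares of all genes tested were 8.62% and 11.3%. The median difference of the list was 0.042, and 48 members had a 95% interval within ±0.5. With any 1 drug library left out, 1 or 2 were called higher and 1 to 3 lower. Tdp1, which removes adducts from DNA ends, gave 558 and 632 in control, 607 and 574 after Oxali, and 359.8 and 376 after Cispl, with the Cispl libraries lowest, and differed by 0.68 ± 0.13 (adjusted p = 2.84e-06). Brca1, of recombination repair, gave 1634 and 1537 after Oxali and 2076 and 2114 after Cispl and differed by -0.40 ± 0.077 (adjusted p = 3.42e-06). Of 17 genes of platinum uptake and export, 3 were lower after Oxali (17.6%, compared with 11.3% of all genes tested). They were Slc31a1, the copper transporter CTR1 (-0.31 ± 0.078), and the export pumps Abcc3 (-0.58 ± 0.18) and Abcc5 (-0.30 ± 0.065). Abcc3 was not called when any 1 drug library was left out, Slc31a1 not without Oxali replicate 1 (-0.28), Cispl replicate 1 (-0.30) or Cispl replicate 2 (-0.32), and Abcc5 not without Cispl replicate 2 (-0.24).

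DNA replication and G1/S genes were lower after Oxali in 32 of 59 members and higher in 1, the kinase gene Cdc7 (not called with any 1 drug library left out), with a median difference of -0.20. Cispl raised 43 members against control and lowered 0 (median 0.29), and Oxali raised 18 and lowered 2 (median 0.092). Ccnd1, cyclin D1, gave 4012 and 4161 in control, 5436 and 5242 after Oxali, and 7684 and 8087 after Cispl. Mcm4, a subunit of the replicative helicase, gave 6899.7 and 6860.2 in control, 6602 and 6615 after Oxali, and 8994 and 9583 after Cispl, and Pcna, the clamp of the replicative polymerases, gave 7339 and 7114 in control, 6296 and 6407 after Oxali, and 9160.1 and 9089 after Cispl. The Cispl libraries were the highest in all 3 genes, while Oxali stood above control for Ccnd1 and below it for Pcna. The differences were -0.56 ± 0.049, -0.49 ± 0.045 and -0.52 ± 0.040 (adjusted p = 5.86e-28, 1.87e-25 and 5.88e-36). Ccne2, cyclin E2, had the largest difference of the list (-0.93 ± 0.096) and was chosen after its value was seen.

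Mitosis and G2/M genes leaned the other way, with 16 of 55 higher and 4 lower after Oxali (Kif20a, Sgo2a, Cdca3 and Birc5), although the median difference was only 0.079, 50 members had an interval within ±0.5, and 9 to 11 were called higher and 1 or 2 lower with any 1 drug library left out. Top2a gave 13076 and 13747 in control, 16190.0 and 16150.0 after Oxali, and 11839 and 12062 after Cispl, with control between the drugs. Cenpf, a kinetochore protein, gave 2223 and 2515 in control, 2634 and 2748 after Oxali, and 1754 and 1908 after Cispl, and Kif20a, a kinesin of cell division, gave 6231 and 6296 in control, 6951 and 6878 after Oxali, and 8959 and 8826 after Cispl. They differed by 0.44 ± 0.038, 0.56 ± 0.080 and -0.36 ± 0.039 (adjusted p = 4.28e-28, 2.16e-10 and 7.91e-19).

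Histone genes split. Of 12 histone variants and linker histones, H3f3b, Hist1h1c, H1f0 and H2afx were higher and H2afy2, H2afz, H2afy and H3f3a were lower after Oxali, but with any 1 drug library left out 2 were called higher and 1 or 2 lower. H2afz, a variant at active promoters, gave 11784 and 11253 in control, 10709 and 10692 after Oxali, and 13298 and 12857 after Cispl and differed by -0.29 ± 0.040 (adjusted p = 1.90e-11). Of 26 replication-dependent histone genes, 21 received no adjusted p. Most mRNAs of this kind lack a poly(A) tail and are lost in poly(A) selection. The 4 called, Hist1h1c, Hist1h2bc, Hist1h4i and Hist3h2a, were all higher after Oxali, and 0 or 1 of the list was called with any 1 drug library left out. Hist1h2bc gave 367 and 357 after Oxali and 268 and 236 after Cispl, a difference of 0.52 ± 0.17.

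Genes of ribosome biogenesis and RNA polymerase I responded to both drugs: 65 of 82 members rose after Oxali and 62 after Cispl. Between the drugs, 15 were higher and 7 lower after Oxali (median 0.052), 76 had an interval within ±0.5, and 4 to 8 were called higher and 2 lower with any 1 drug library left out. With all libraries, the called shares were 18.3% higher and 8.54% lower, compared with 8.62% and 11.3% of all genes tested. Of the 82 members, 70 reached a mean of 1000 normalised counts, where the shares were 14.6% higher and 24.3% lower. Npm1, a nucleolar chaperone, gave 26090.0 and 27155 in control, 31956 and 33049 after Oxali, and 27395 and 26792 after Cispl. Wdr43, of the small subunit processome, gave 3038 and 3112 in control, 4798 and 4620.5 after Oxali, and 3614 and 3764 after Cispl, and Nolc1, a nucleolar phosphoprotein, gave 5411 and 5549 in control, 7958 and 7719 after Oxali, and 9319.9 and 9679.8 after Cispl. Npm1 and Wdr43 were higher after Oxali (0.26 ± 0.036 and 0.35 ± 0.053) and Nolc1 was lower (-0.28 ± 0.043; adjusted p = 8.10e-12, 8.42e-10 and 3.19e-09).

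Transcripts at rRNA repeat loci are uncertain, because poly(A) selection leaves residual rRNA and copies share reads. Gm26917 gave 2359 and 1886 in control, 4286 and 4193 after Oxali, and 20255 and 22338 after Cispl and differed by -2.33 ± 0.14 (adjusted p = 8.34e-58). Gm42418 gave 2501 and 1832 in control, 1305 and 1296 after Oxali, and 2518 and 2319.7 after Cispl and differed by -0.90 ± 0.19 (adjusted p = 2.08e-05). Gm26917 was highest in the Cispl libraries, with Oxali between these and control, whereas Gm42418 was lowest in the Oxali libraries and its Cispl and control libraries overlapped. AY036118 gave 12250.0 and 8005 after Oxali and 8396 and 6270.4 after Cispl and differed by 0.47 ± 0.41 (adjusted p = 0.461). Lars2, whose annotation overlaps a repeat, gave 5487 and 4057 after Oxali and 6652 and 6237 after Cispl, a difference of -0.43 ± 0.20 that did not pass (adjusted p = 0.106), although it was called without Oxali replicate 1 (-0.67). Of the small RNA genes, Rn7sk did not pass, and Rn7s1 and Rn7s2, which held the same values, Rmrp and Rpph1 received no adjusted p.

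Cytosolic ribosomal protein genes and nuclear genes of oxidative phosphorylation differed little. Of 80 ribosomal protein genes, 7 (8.75%) were lower and 0 higher after Oxali, compared with 11.3% and 8.62% of all genes tested. Of the 80, 79 reached a mean of 1000 normalised counts, where the shares were 24.3% and 14.6%, and 78 had an interval within ±0.5. With any 1 drug library left out 3 to 6 were called lower and 0 to 2 higher, and after a trend with transcript length and GC content was removed from each library 7 were lower and 12 higher. Rps20 (-0.29 ± 0.054), Rpl22l1 (-0.73 ± 0.084) and Rpl3 (-0.22 ± 0.045) had the smallest adjusted p. Of 75 oxidative phosphorylation genes, Ndufs4 (0.23 ± 0.083) was higher and 4 were lower, Sdhd (-0.20) and Atp5g1 (-0.20) among them, while 73 had an interval within ±0.5, and 0 were called with any 1 drug library left out. Of the 13 mitochondrially encoded genes, mt-Nd1 was lower (-0.18 ± 0.044; adjusted p = 4.63e-04), and it was not called without Cispl replicate 1 (-0.13). mt-Nd2 and mt-Nd4 differed by -0.061 (-0.14 to 0.021) and -0.037 (-0.13 to 0.060).

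YAP and TAZ target genes were higher after Oxali in 11 of 24 members and lower in 2, Ccn2 and Wwtr1 (median 0.18), and 6 to 10 were called higher with any 1 drug library left out. After the trend with transcript length and GC content was removed, 10 were called higher and the median was 0.081. Tead1, the DNA-binding partner of YAP, gave 3709.8 and 4186 in control, 4789.5 and 4536 after Oxali, and 3166 and 3333 after Cispl, with control between the drugs. Ccn2, a matricellular growth factor, gave 1520.2 and 1529 in control, 2715 and 2519.5 after Oxali, and 3564 and 4049 after Cispl and rose with both drugs. Amotl2, Tead1 and Ccn2 differed by 0.71 ± 0.049, 0.52 ± 0.069 and -0.54 ± 0.077 (adjusted p = 5.35e-44, 2.43e-12 and 8.20e-11).

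Glycolysis and hypoxia genes were higher after Oxali in 16 of 35 members and lower in 4, Ero1l, Ndrg1, Vegfa and Gpi1 (median 0.15), with 12 or 13 called higher and 2 lower with any 1 drug library left out. Oxali raised 15 members against control and lowered 5, and Cispl raised 3 and lowered 9. Ldha, lactate dehydrogenase A, gave 24469 and 23644 in control, 28757 and 28762 after Oxali, and 22993 and 22844 after Cispl, Pfkl, a phosphofructokinase, gave 5072 and 5013 in control, 5748 and 5724 after Oxali, and 4214 and 4125 after Cispl, and Pdk1, which inhibits pyruvate dehydrogenase, gave 1522 and 1445 in control, 1612 and 1599.5 after Oxali, and 1003 and 981 after Cispl. The Oxali libraries were highest in all 3 genes, and the differences were 0.33 ± 0.031, 0.46 ± 0.045 and 0.69 ± 0.079 (adjusted p = 2.49e-23, 1.15e-22 and 9.65e-17).

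Extracellular matrix and integrin genes parted in both directions, with 14 of 63 (22.2%) higher and 13 (20.6%) lower after Oxali and a median of -0.035. The shares of all genes tested were 8.62% and 11.3%, and 14.6% and 24.3% among genes whose mean reached 1000 normalised counts. Of the 63 members, 46 reached that mean. Col12a1, a fibril-associated collagen, gave 1387 and 1607 in control, 1614 and 1562 after Oxali, and 872 and 921 after Cispl. Postn, periostin, gave 38322 and 38910.0 in control, 36132 and 37847 after Oxali, and 28718 and 28327 after Cispl, and Col5a2 gave 29840.0 and 29851 in control, 32208 and 32252 after Oxali, and 26765 and 26650.0 after Cispl. All 3 fell after Cispl, and Col12a1 and Postn were not called after Oxali whereas Col5a2 rose (0.11). The differences were 0.82 ± 0.095, 0.37 ± 0.034 and 0.27 ± 0.027 (adjusted p = 4.71e-16, 2.42e-26 and 1.56e-21). With any 1 drug library left out, 8 to 10 were called higher and 4 to 8 lower.

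Of 15 R-spondin and Wnt feedback genes, Rspo3, Znrf3, Rspo2 and Lgr6 were higher and Ctnnb1, the beta-catenin gene (-0.18 ± 0.034), was lower after Oxali, but 0 were called higher with any 1 drug library left out, when 1 to 3 of the 4 received no adjusted p. Of 13 genes of prostaglandin synthesis and receptors, Ptger4, Ptgs2, Ptgs1 and Ptges3 were lower, and Ptges3 (-0.19 ± 0.061) was not called without Oxali replicate 1 (-0.12), Cispl replicate 1 (-0.21) or Cispl replicate 2 (-0.17). The called shares were 26.7% higher and 6.67% lower on the R-spondin list and 30.8% lower on the prostaglandin list. Those of all genes tested were 8.62% higher and 11.3% lower. Of 11 genes of the MYC and MAX network, Myc and Mxd4 were lower (18.2%, compared with 11.3% of all genes tested). Myc gave 1068 and 1005 in control, 1602 and 1527 after Oxali, and 1999.9 and 2117 after Cispl and rose with both drugs, further with Cispl, a difference of -0.40 ± 0.077 (adjusted p = 5.02e-06). Mxd4, a MAX partner that opposes MYC, differed by -0.54 ± 0.066.

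**Figure D4:**
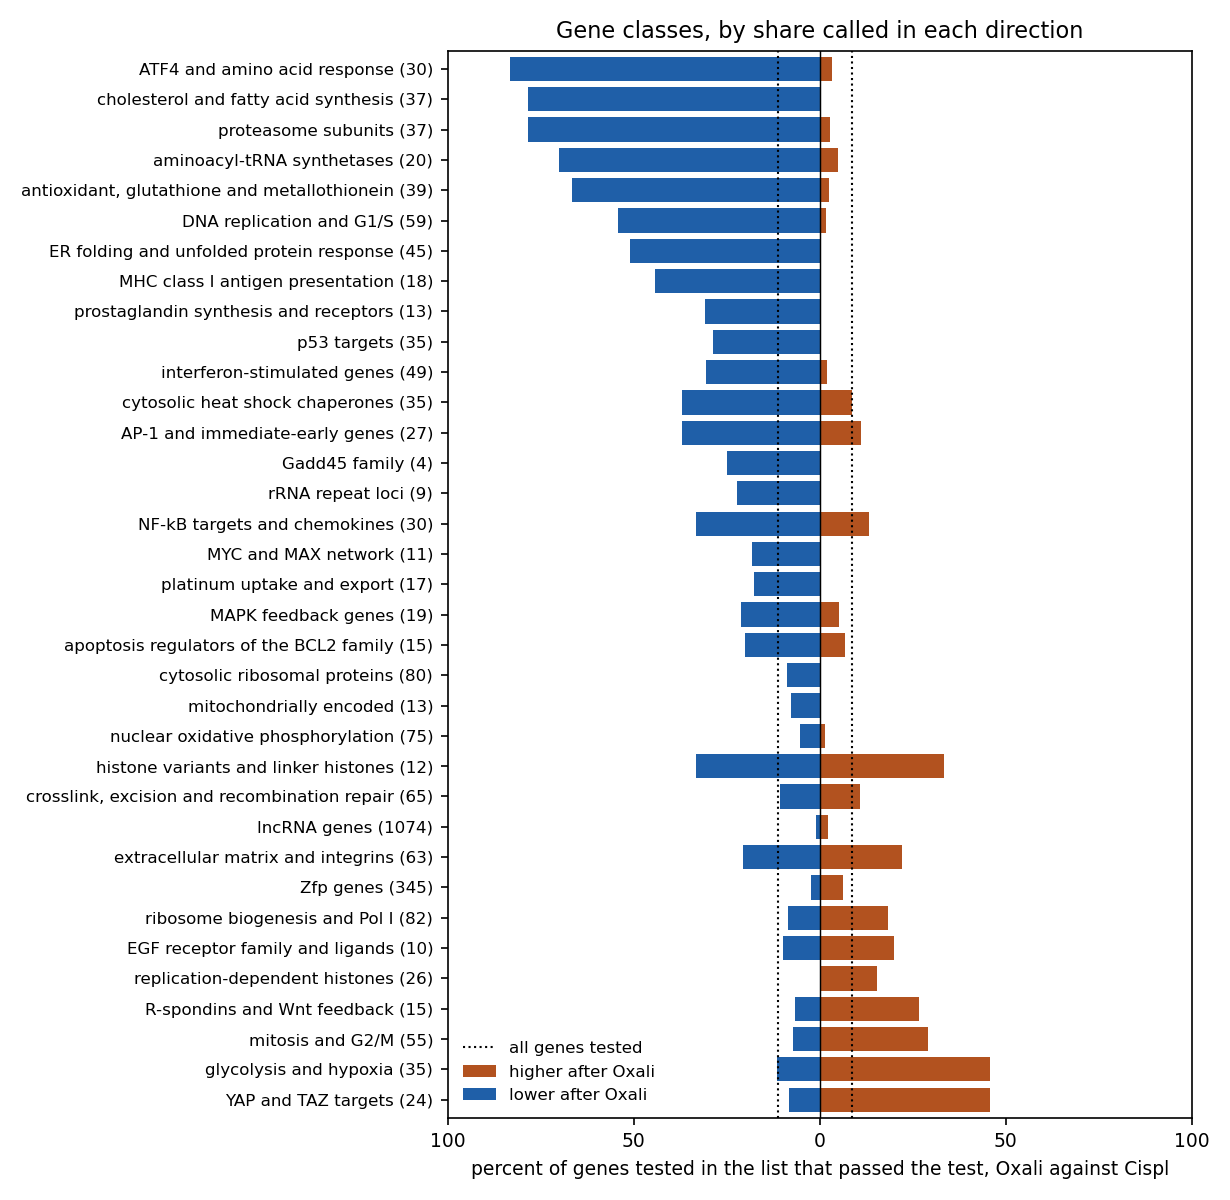
Percentage of the members tested of each list that were called higher (right) or lower (left) after Oxali than after Cispl, with the number tested in brackets and dotted lines at the percentages of all genes tested. The ATF4, synthetase, cholesterol, proteasome and antioxidant lists stand lower after Oxali, and the YAP, glycolysis and mitosis lists have more members higher than lower.

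The difference between the drugs varied with gene length. Of 302 protein-coding genes with bodies over 300 kb, 136 (45.0%) were higher and 4 (1.32%) lower after Oxali, with a median difference of 0.39 and quartiles of 0.18 and 0.68. Against control, the median of these genes was -0.44 after Cispl and -0.04 after Oxali. Among 1404 genes of 100 to 300 kb, 281 were higher and 72 lower, and the median was 0.11. Among 3676 genes of 30 to 100 kb, 411 were higher and 448 lower. Below that length the balance turned: 250 of 4147 genes of 10 to 30 kb were higher and 718 lower, and 173 of 3016 genes under 10 kb were higher and 406 lower, with a median of -0.05 in both. With any 1 drug library left out, 60 to 69 genes over 300 kb were called higher, and 14 to 21 of the 136 received no adjusted p. Their median difference lay between 0.37 and 0.42 in all 6 fits that left out a library. It was 0.34 among the 219 genes whose mean reached 100 normalised counts. After the trend with transcript length and GC content was removed, the median over 300 kb was 0.32, with 107 genes higher and 7 lower. With the same step the median of 100 to 300 kb became 0.047, with 199 higher and 129 lower, and the median under 10 kb became -0.0007, with 261 higher and 330 lower.

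**Figure D5:**
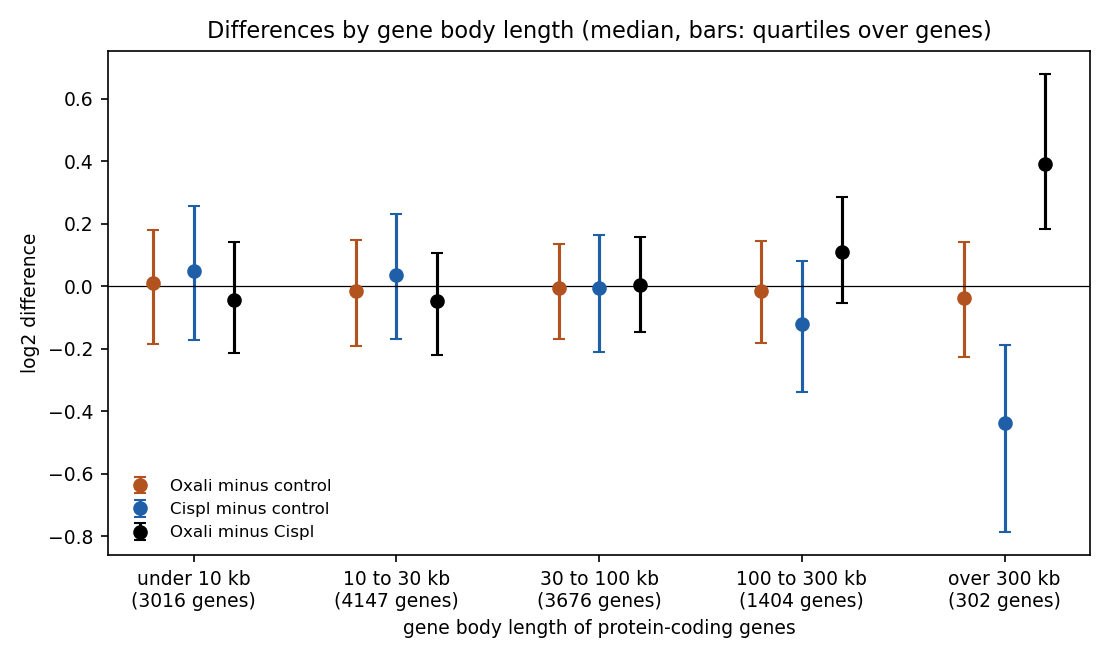
Log2 differences of protein-coding genes by gene body length, for Oxali against Cispl and for each drug against control, with points at the median and bars at the quartiles over the genes of each length class. The medians between the drugs run from -0.05 under 10 kb to 0.39 over 300 kb, and the median against control over 300 kb is -0.44 after Cispl and -0.04 after Oxali.

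Of 345 zinc finger genes with Zfp names, 22 (6.38%) were higher and 8 lower after Oxali (median 0.11), and 5 to 8 were called in each direction with any 1 drug library left out. The share lower was 2.32%, and the shares of all genes tested were 8.62% higher and 11.3% lower. Of the 345 genes, 31 reached a mean of 1000 normalised counts, a level at which calls were more frequent. The balance turned to 17 higher and 20 lower after the trend with transcript length and GC content was removed, and edgeR called 64 higher and 18 lower. Oxali lowered 19 of them against control and Cispl lowered 48. Between the drugs, 2.23% of lncRNA genes were called higher and 1.02% lower after Oxali, compared with 8.62% and 11.3% of all genes tested. Of 1074 lncRNA genes, 707 received no adjusted p, 24 were higher and 11 lower, and 4 or 5 were called higher and 5 or 6 lower with any 1 drug library left out.

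Other genes differed little between the drugs. For 7620 genes (50.9%), the 95% interval of the difference lay within ±0.5 on the log2 scale. Of these, 1586 were called all the same and 6034 were not. In addition, 1271 genes with a mean of at least 100 normalised counts passed against control in the same direction with both drugs and did not pass between them. Ccl2, a chemokine for monocytes, gave 856 and 827 in control, 2463 and 2159 after Oxali, and 2325 and 2303 after Cispl, and its difference was -0.0014 (-0.16 to 0.16). Gm14296, a zinc finger gene model, gave 107 and 102 in control, 406 and 408 after Oxali, and 426 and 401 after Cispl and differed by -0.024 (-0.32 to 0.27). Ccl2 rose by 1.46 after Oxali and 1.46 after Cispl and Gm14296 by 1.9595 and 1.98, and in both genes the libraries of the drugs overlapped. Siglecg, a sialic acid-binding receptor, rose by 1.40 and 1.32 and differed by 0.075 (-0.19 to 0.34). The intervals of the other members reached beyond ±0.5 and leave room for a difference. Ereg, the growth factor epiregulin, differed by -0.25 (-0.65 to 0.14), Edn1, the vasoconstrictor peptide endothelin 1, by -0.26 (-0.73 to 0.21), and Gata3, a lineage transcription factor, by -0.12 (-0.57 to 0.33). Tnfsf18, a TNF-family ligand, differed by -0.18 (-0.73 to 0.36), Gm46209 by 0.36 (-1.19 to 1.91) and Zfp781 by 0.030 (-0.69 to 0.75). Ccl5, a T-cell chemokine, gave 115 and 119 in control, 296 and 294 after Oxali, and 394 and 381 after Cispl. It rose with both drugs and differed by -0.39 (-0.71 to -0.080, DESeq2 adjusted p = 0.0549), and it passed under edgeR.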

How the data were processed

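RNA of TRAMP-C2 cells was sequenced from stranded poly(A) libraries, 2 each of control, Oxali and Cispl. The authors deposited estimated counts per gene, which need not be whole; the submitters' processing notes name STAR 2.5.3a, RSEM 1.3.0 and GRCm38.p6. Whether counting used strand is not given in the sources used here. Counts were rounded, and genes that reached 10 counts in 2 or more of the 6 libraries were fitted with DESeq2 1.42.0 (R 4.3.3) on all 3 groups without covariates, with median-of-ratios size factors, Wald tests, Benjamini-Hochberg adjustment and independent filtering. A gene was called at an adjusted p below 0.05. Genes that independent filtering sets aside have no adjusted p. Log2 differences are unshrunken and are given ± SE with n = 2 libraries per group, and intervals are 95% Wald intervals. Library totals were close, so depth limits genes of low counts alike in all groups. The scripts were tested on simulated data.

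Gene names, positions and body lengths came from the GENCODE annotation of the files' build, and promoter windows from RefSeq. Named genes were, per direction, the 10 largest called differences and the 10 largest opposite moves, 3 genes per list by smallest adjusted p, members behind counts of 5 or fewer, the 10 largest shared changes not called between the drugs, and the rRNA loci. Some genes that these rules name are not reported here. Other names are marked as chosen after their values were seen. The members, lists and rules were chosen with earlier results of these data known. Because separate cultures are not stated, p-values measure the spread between these libraries. Alternatives were edgeR 4.0.16 (quasi-likelihood, TMM), TMM or total-count scaling, other filters, a replicate block, removal of a transcript length and GC trend, the 4 drug libraries alone, and leaving out each library.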

Additional observations from a re-analysis of the deposited data

How the results depend on the processing

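The count of genes called between the drugs, 2977, became 4773 with edgeR's quasi-likelihood test (2952 shared, all with the same sign), 1861 with the replicate block, 66 with a log2 difference of at least 1, and 1160 to 2439 with 1 library left out. The count of opposite moves, 147, became 275, 72 and 4 under the same alternatives and 39 to 60 with 1 library left out. Against control, the 3028 genes called after Oxali became 4618 with edgeR, 1958 with the block and 1187 to 2139 with 1 library left out, and the 4203 after Cispl became 2046 to 2974. Leaving out a drug library leaves its arm with 1 library, which is assumed to vary like the others. The other scalings and filters kept these counts within 1.5 times, but their members changed more. Total-count scaling shared 2642 of the 2977 called genes and 115 of the 147 opposite moves. Removal of the transcript length and GC trend shared 2473 and 115. The 7620 genes bounded within ±0.5 became 5799 to 7120 with 1 library left out.

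The replicate numbers are shared by the groups but the labels do not say that they mark a shared batch. Deviations of same-numbered libraries correlated by -0.013 (Oxali and Cispl), 0.010 (control and Oxali) and 0.038 (control and Cispl). These values cover all genes at once and can miss a batch that moved only some of them.

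Sign changes in genes that did not pass between the drugs were not counted. Of 143 named genes, none that passed changed direction under any alternative. Calls were lost for 12 to 14 of them without a drug library, 2 without a control library and 8 with the block, and 37 combinations of a named gene and a left-out library gave no adjusted p and hence no call. The medians of the ribosomal protein, oxidative phosphorylation, repair, BCL2-family, EGF-family and histone variant lists changed sign under at least 1 scaling or left-out library. The causes were not tested. Depth limits the 2900 genes of low counts without an adjusted p.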

Other observations

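Outside the lists described so far, 3 gene groups were noticed in the results and put together after their values were seen, so they are described and not tested. Of 13 tubulin genes, 11 were lower after Oxali than after Cispl and 0 were higher, with a median difference of -0.50, compared with -0.003 over all genes tested, and 10 or 11 were called when any 1 drug library was left out. Tubulins form the microtubules of the cytoskeleton and the spindle. Cispl raised 11 of the 13 against control, and Oxali lowered 5 and raised 2. Tuba1a, an alpha-tubulin, gave 30047 and 28589 in control, 22725 and 23161 after Oxali, and 36097 and 35972 after Cispl normalised counts, with control between the drugs. Tubb2a, a beta-tubulin, gave 4069.9 and 4036 in control, 4004 and 4118 after Oxali, and 6550.5 and 6584 after Cispl, and it rose after Cispl (0.70 ± 0.045) and was not called after Oxali (0.0028 ± 0.046). The 2 members that were not called were Tubb4a and Tubg2.

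Actin cytoskeleton genes and targets of the factor SRF went the other way. Of 34 members, 27 were higher after Oxali and 1, the cytoplasmic beta-actin gene Actb (-0.24 ± 0.033), was lower, with a median difference of 0.24, and 20 to 23 were called higher when any 1 drug library was left out. Oxali raised 24 members against control and Cispl raised 11 and lowered 10. Actg1, the cytoplasmic gamma-actin gene, gave 65383 and 63193 in control, 72729 and 72681 after Oxali, and 58024 and 58726 after Cispl and so differed from Actb in direction, by 0.32 ± 0.029. These genes are near-identical in their coding parts, so their estimated counts may share reads. Srf itself differed by 0.46 ± 0.090, and Tgfb1i1, a focal adhesion adaptor, by 0.78 ± 0.12.

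Autophagy genes were lower after Oxali in 12 of 27 members and higher in 0, with a median difference of -0.18, and 7 or 8 were called when any 1 drug library was left out. Map1lc3b, which encodes the autophagosome protein LC3B, gave 3101 and 2935 in control, 2532 and 2606 after Oxali, and 4149 and 4022 after Cispl, and Sqstm1, the cargo receptor p62, gave 9091 and 8587 in control, 7421 and 7678 after Oxali, and 10692 and 10719 after Cispl. Both fell after Oxali and rose after Cispl. Becn1 and Atg5, of the core machinery, differed by -0.091 (95% interval -0.22 to 0.040) and -0.074 (-0.25 to 0.097).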
